A study of Homo sapiens with 4 samples.

Results

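The replication-dependent histone genes were read on arrays of the human lymphoma lines Jeko-1 and Raji and of 1 rituximab-resistant derivative of each (2 lines in all). Members were the genes H1-1 to H1-6 and all genes named H2AC, H2BC, H3C or H4C with a number, read by a probe set annotated with that symbol alone. The rule gave 42 genes on 48 probe sets, of 19775 genes and 54613 probe sets in all: 6 of H1, 8 of H2A, 13 of H2B, 7 of H3 and 8 of H4. Where a gene had several probe sets, the brightest by mean signal stood for it. Another 20 probe sets matched several histone genes at a time. They are not members, and they are given as separate readings.

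Jeko-1 comes from mantle cell lymphoma, Raji from Burkitt lymphoma. Rituximab binds the B-cell surface protein CD20. Jeko-1/R and Raji/R are the sublines that were made resistant to it. The groups were untreated Jeko-1, rituximab-treated Jeko-1/R, untreated Raji and rituximab-treated Raji/R, with 1 array each. The labels give no dose or duration, and no separate cultures of a group. No p-value could be computed within a line. In bulk RNA, fewer cells in S phase and less histone mRNA per cell cannot be told apart.

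Core histones H2A, H2B, H3 and H4 form the protein spool of the nucleosome, and H1 binds the DNA between spools. The replication-dependent genes supply them in S phase, when new DNA must be packaged. Most lie in gene clusters, and each class is encoded by many nearly identical copies. Their mRNAs usually end in a stem-loop in place of a poly(A) tail, and stem-loop binding protein (SLBP) governs their processing and life span. A smaller part of histone transcripts carries a poly(A) tail. The labels do not name the labelling primer, and with a primer on poly(A) only such transcripts would be read. Near-identical copies can also share probes, so a signal is uncertain as a reading of 1 copy, most of all for the 9 members read by x_at or s_at probe sets.

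The promoters of the members the results turn on are shown because the classes differ in the motifs they hold. Each sequence covers the 150 bases before the RefSeq start, read 5′ to 3′ on the gene's strand, from RefSeq GRCh38.p14. The regions are H2BC3 chr6:26043714-26043863 (-), H2BC11 chr6:27132796-27132945 (-), H2BC12 chr6:27146859-27147008 (-), H2BC21 chr1:149886683-149886832 (-), H4C4 chr6:26189113-26189262 (-), H4C9 chr6:27139132-27139281 (+), H4C11 chr6:27823942-27824091 (+). Capitals mark matches on either strand to the octamer ATTTGCAT, to CCAAT or to TATAAA. The octamer is the classic element of H2B promoters and is bound by POU2F1 (OCT-1).
H2BC3: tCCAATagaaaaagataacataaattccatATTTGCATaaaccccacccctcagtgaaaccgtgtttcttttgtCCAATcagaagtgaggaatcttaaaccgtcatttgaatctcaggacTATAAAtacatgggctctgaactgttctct
H2BC11: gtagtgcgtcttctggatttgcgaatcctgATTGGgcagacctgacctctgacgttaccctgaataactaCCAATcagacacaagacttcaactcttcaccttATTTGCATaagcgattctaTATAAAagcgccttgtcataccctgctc
H2BC12: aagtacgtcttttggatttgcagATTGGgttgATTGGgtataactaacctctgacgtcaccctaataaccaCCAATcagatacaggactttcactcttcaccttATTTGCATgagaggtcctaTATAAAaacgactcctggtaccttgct
H2BC21: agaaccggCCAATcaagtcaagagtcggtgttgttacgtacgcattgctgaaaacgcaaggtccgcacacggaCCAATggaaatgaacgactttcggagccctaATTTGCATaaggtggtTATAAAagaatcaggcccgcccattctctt
H4C4: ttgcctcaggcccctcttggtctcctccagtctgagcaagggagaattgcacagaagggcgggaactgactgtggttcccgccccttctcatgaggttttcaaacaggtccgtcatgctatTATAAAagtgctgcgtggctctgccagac
H4C9: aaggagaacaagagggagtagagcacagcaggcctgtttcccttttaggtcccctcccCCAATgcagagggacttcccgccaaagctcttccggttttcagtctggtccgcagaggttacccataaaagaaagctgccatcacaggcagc
H4C11: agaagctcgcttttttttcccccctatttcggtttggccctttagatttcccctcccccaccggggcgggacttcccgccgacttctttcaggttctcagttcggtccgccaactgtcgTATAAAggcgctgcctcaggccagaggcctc

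RefSeq promoters were matched for 40 of the 42 genes, 38 on chromosome 6 and 2 on chromosome 1 (H2BC21 and H2AC25). Within the 250 bases before the start, the octamer was found in 10 of 13 H2B promoters and 6 of 8 H2A promoters, and in 0 of 6 H1, 0 of 6 H3 and 0 of 7 H4 promoters. Over the 27305 genes of the promoter table, 1.66% held it. CCAAT was found in every H1, H2A, H2B and H3 promoter matched, in 2 of 7 H4 promoters and in 33.0% of all promoters. TATAAA was found in 27 of 40 histone promoters, against 11.1% of all promoters. In H2BC11, H2BC12 and H2BC21 the octamer began 47, 46 and 46 bases before the start, close to the TATAAA match. In H2BC3 it began 120 bases before the start. Matches are counted on both strands, can overlap, and describe letters, not binding.

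**Figure D1:**
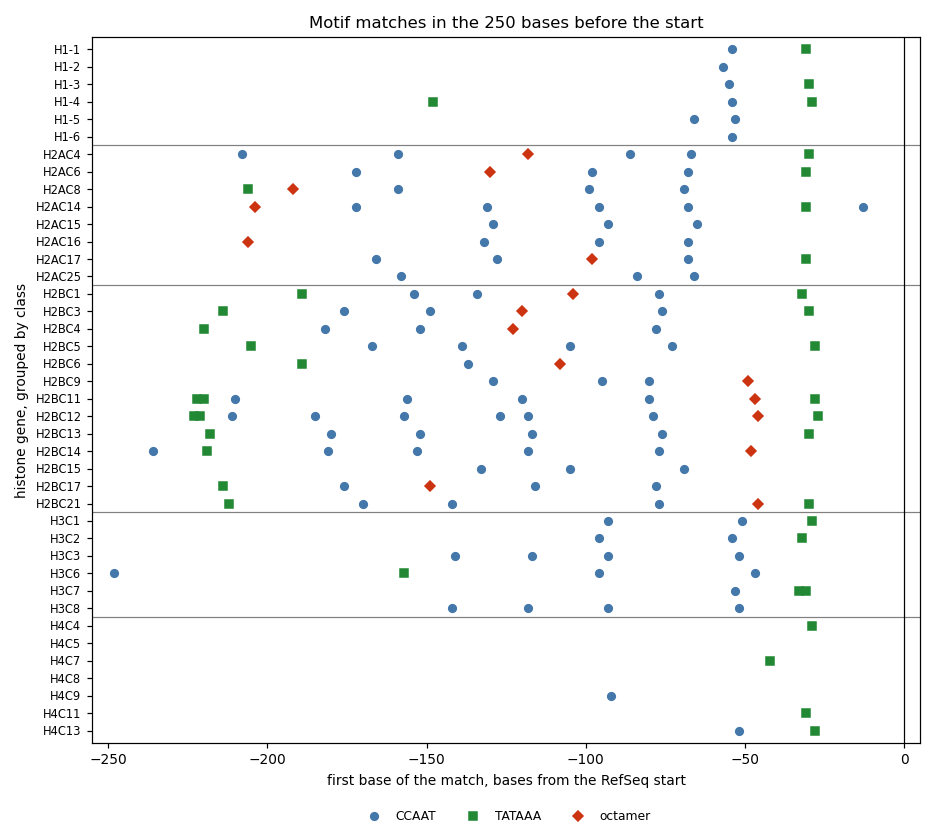
Motif matches in the 250 bases before the start of the 40 histone genes with a RefSeq promoter. The x axis gives the first base of each match in bases from the start, the y axis lists the genes by class, and each point is 1 match (circle CCAAT, square TATAAA, diamond octamer). Octamers appear in H2A and H2B rows and in no H1, H3 or H4 row.

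Signals are MAS5 values, on a linear scale unless log2 is named, and levels of different genes are not compared because probe sets differ in efficiency. A floor was set at the pooled median of all values, a signal of 77.5, and lower values were raised to it in every ratio and test. A gene counted as measured when its mean signal over the 4 arrays reached the floor, which held for 34 of the 42 members and 12479 genes in all. The 8 members below that mean were H1-1, H1-6, H2BC1, H2BC13, H2BC17, H3C1, H3C11 and H4C1. Of all members, 19 were above the floor on all 4 arrays, and 4 (H2BC1, H2BC13, H3C1 and H4C1) were below it on all 4. As a stand-in for error, log2 ratios of different probe sets of 1 gene had a spread (SD) of 0.26 for Jeko-1 and 0.53 for Raji, over 6027 genes. This SD does not cover differences between cultures.

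**Figure D2:**
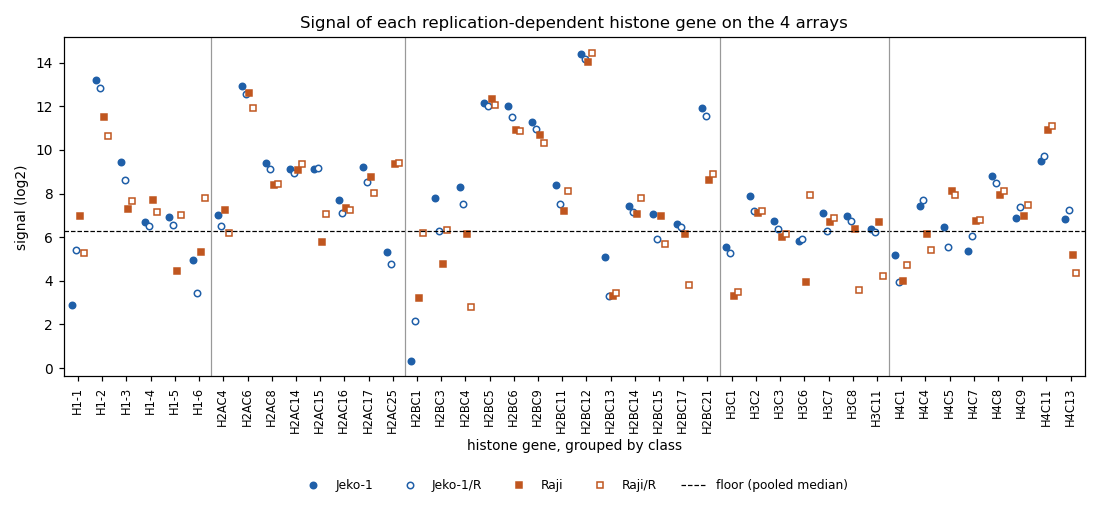
Signal of the 42 histone genes on each array, on a log2 axis, with genes grouped by class along the x axis. Filled symbols are parental lines and open symbols resistant sublines, circles are Jeko-1 and squares Raji, and the dashed line is the floor at a log2 of 6.28. The Jeko-1 and Raji symbols lie far apart for H2AC25, H2AC15 and H2BC21 and close together for H2BC5.

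The arrays differed in background. On the Raji/R array 55.6% of probe sets reached the floor, against 48.0% to 48.3% on the others. B-cell markers were above the floor on every array in 5 of 5 cases. The mantle cell markers CCND1 and SOX11 were above it on both Jeko-1 arrays and on neither Raji array. Markers of other cells were mostly low. Of 6 T-cell, 5 NK-cell, 5 myeloid and 5 epithelial or stromal markers, 1, 2, 1 and 4 reached the floor in Raji and 2, 3, 1 and 4 in Raji/R. Summed signals in Raji and Raji/R were 317 and 408 for T cells, 1089 and 2107 for NK cells, 252 and 493 for myeloid cells and 2306 and 2389 for epithelial and stromal cells. In Jeko-1 and Jeko-1/R those sums were 125 and 252, 213 and 138, 166 and 210, and 655 and 422. The part of these markers in the histone values was not tested.

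Jeko-1/R against Jeko-1 asked whether histone expression differed in the resistant mantle cell subline. Most histone genes were somewhat dimmer in Jeko-1/R, and the linker, H2A, H2B and H3 classes all had medians below 0. The median log2 ratio of the 34 measured members was -0.30, with 26 below 0, 5 above and 3 with both values under the floor. Over all measured genes the median was 0.00, and 44.4% lay below 0 and 45.2% above. With all 42 members and no filter, 28 lay below 0 and 5 above. Just 1 member, H2BC3, was at least 2-fold lower, and 0 were at least 2-fold higher, against 0.553% and 0.345% of all genes. The difference was thus small for most members, and for many it was near the SD between probe sets.

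Linker histones were lower in each measured case. H1-2 read 9299 in the parent and 7250 in the resistant subline (log2 ratio -0.36). H1-3 went from 707 to 394 (-0.84), and H1-4 from 104 to 90.9 (-0.20). H1-5 stood at 120.0 and 93.3 (-0.36). The class median was -0.36 over 4 genes.

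Among H2A genes, 6 of 8 were below 0, with a median of -0.31. H2AC17 stood at 588 and 370 (-0.67), H2AC16 at 210.5 and 139 (-0.60) and H2AC4 at 129 and 91.5 (-0.50). H2AC6, whose probe set is an s_at set, stood at 7855 and 6101 (-0.36). H2AC15 stood at 555 and 579 (0.06), but the mean of its probe sets, of which the other was under the floor on all arrays, gave 1.09 here and 0.00 in the Raji pair. H2AC25 was under the floor on both. Read by the brightest probe set, H2A members ranged from -0.67 to 0.06 and 0 passed 2-fold.

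H2B was the class with the lowest median, -0.41, and all 10 measured genes lay below 0. H2BC3 read 219.5 in the parent and 78.2 in the subline, a 2.81-fold difference that ends just above the floor. Its Raji and Raji/R signals were 27.4 and 81.4, so only the parental Jeko-1 array lay well above the floor and brought its mean over it. H2BC11 stood at 336 and 183 (-0.87). H2BC15 stood at 133 and 61.1, at least 1.72-fold lower. H2BC4 stood at 314 and 185 (-0.77). The other 6 lay between -0.47 and -0.16, among them H2BC12, at 21622 and 18159 (-0.25), and H2BC5, at 4585 and 4107 (-0.16, with -0.27 from its other probe set). Without x_at and s_at probe sets the H2B median was -0.78.

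H3 genes gave a median of -0.36 over 5 genes. H3C7 stood at 139 and 76.9, at least 1.80-fold lower. H3C2 stood at 237 and 148 (-0.68), H3C3 at 106 and 82.6 (-0.36) and H3C8 at 125 and 106 (-0.25). H3C6 was under the floor on both arrays.

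H4 was the exception among single-gene readings by the sign of its median, but that median was under the SD between probe sets (0.26). The median was 0.22, with 4 of 7 genes above 0 and 2 below, where 45.2% of all measured genes lay above 0. Under the alternatives it ran from 0.11 (no filter) to 0.23 (filter on 1 array of the pair). Without x_at and s_at probe sets it was 0.12. H4C9 stood at 118 and 169 (0.52), H4C13 at 113 and 149 (0.40), H4C4 at 174 and 206 (0.24) and H4C11 at 728 and 847 (0.22). H4C13 was under the floor on both Raji arrays, and its mean signal of 79.9 only just reached the floor. H4C8 stood at 443 and 360 (-0.30), while its other probe set gave 377 on both arrays. Whether H4 differs from the other classes was not tested.

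Probe sets that match several histone genes gave a reading that the rule did not use. Of 16 whose mean reached the floor, 15 lay below 0 in Jeko-1/R, with a median of -0.29 and a range of -0.59 to 0.12. For H4 these readings had the opposite sign to the single-gene median. The 3 measured sets annotated to 14 H4 symbols gave -0.26, -0.33 and -0.50. The brightest of them read 33728.5 in the parent and 28134 in the subline. A set for 10 H3 symbols stood at 1085 and 723 (-0.59), and an s_at set for H2AC18 and H2AC19 at 11888 and 9263 (-0.36). A set shared by 5 H2B genes stood at 2595 and 1771 (-0.55).

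**Figure D3:**
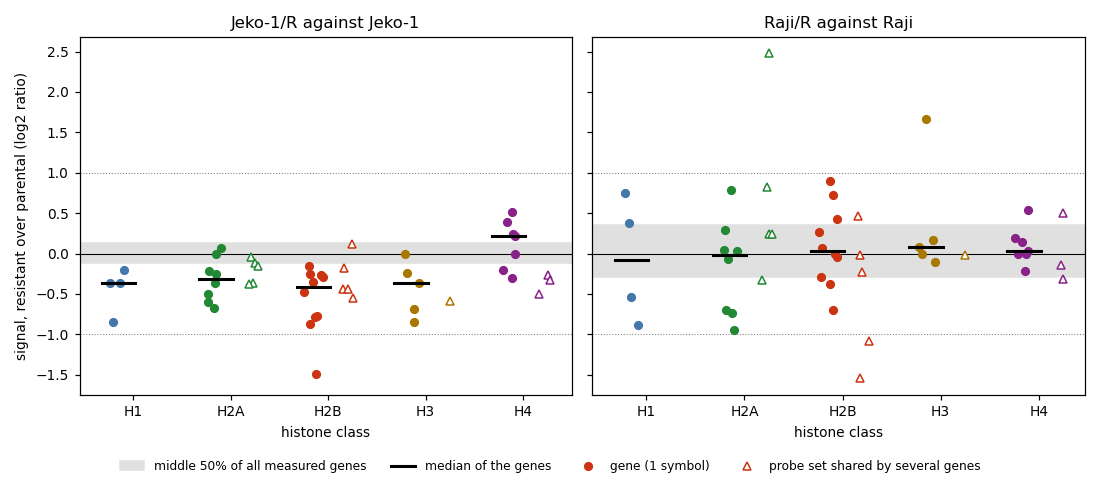
Log2 ratio of resistant over parental signal for each histone class, with Jeko-1/R at left and Raji/R at right. Filled points are the 34 measured genes, bars their class medians, open triangles the probe sets shared by several genes of 1 class (sets shared by H2A and H3 genes are not drawn), dotted lines mark 2-fold, and the grey band is the middle 50% of all measured genes. In Jeko-1/R the H1, H2A, H2B and H3 medians lie between -0.41 and -0.31, below the band, and in Raji/R all 5 medians lie inside it.

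Raji/R against Raji put the same question to the Burkitt subline, and the histone genes had no common direction there. The median of the 34 measured members was 0.03, against 0.00 for all measured genes. Of the members, 12 lay below 0, 18 above and 4 had both values under the floor, while 45.3% of all genes lay below 0 and 49.4% above. At least 2-fold higher was 1 member (H3C6) and at least 2-fold lower were 0, against 6.27% and 2.83% of all genes. Class medians ran from -0.08 for H1 to 0.08 for H3, and their signs depended on the scaling. With quantile normalization the medians were 0.14 for H1, -0.24 for H2A and -0.24 for H3, and with lowess they were -0.35, -0.21 and -0.10. Members below and above 0 then numbered 15 and 15 with quantile normalization, and 19 and 15 with lowess.

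The spread among members was wider than in the Jeko-1 pair. H1-2, the bright linker gene, stood at 2929 in Raji and 1586 in Raji/R, a log2 ratio of -0.88. H1-4 stood at 205 and 141 (-0.54), while H1-3 stood at 157 and 205 (0.38). H1-5 went from 22.2 to 130.0, at least 1.68-fold higher. H1 genes were therefore split, with 2 lower and 2 higher.

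H2A was split in the same way, with 4 genes below 0 and 4 above. H2AC6 stood at 6243 in Raji and 3853 in Raji/R (-0.70), H2AC17 at 433 and 260.1 (-0.74) and H2AC4 at 149.8 and 72.4, at least 1.93-fold lower. On the other side, H2AC14 stood at 542 and 664 (0.29), and H2AC15 at 54.7 and 134, at least 1.73-fold higher. H2AC25 stood at 651 and 671 (0.04) and H2AC8 at 339 and 346 (0.03). These values do not describe a shift of the class.

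In H2B, H2BC11 stood at 149 and 276 (0.89), H2BC14 at 134 and 221 (0.72) and H2BC12 at 16753 and 22474 (0.42). H2BC15 stood at 126 and 51.6, at least 1.63-fold lower. H2BC9 stood at 1666 and 1288 (-0.37) and H2BC5 at 5219 and 4258 (-0.29, with 0.00 from its other probe set). H2BC3, low in Jeko-1/R, stood at 27.4 in Raji, under the floor, and at 81.4 in Raji/R, just above it. The class median was 0.04.

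H3C6 stood at 15.5 in Raji and 246 in Raji/R, at least 3.17-fold higher. Its signals in Jeko-1 and Jeko-1/R were 57.4 and 59.9, so that only the Raji/R array brought it above the floor, and its other probe set was under the floor on all 4 arrays. H1-6, the testis linker histone, was not counted as measured, and its probe set went from 39.7 to 219.8 while another went from 116 to 83.3. In H4, H4C9 stood at 124 and 179 (0.54), H4C11 at 1953 and 2154 (0.14), H4C8 at 245 and 279.7 (0.19) and H4C5 at 281 and 243 (-0.21).

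Shared probe sets were as divided in the Raji pair, with 8 of 16 below 0, 8 above and a median of 0.05. Of these, 1 was at least 2-fold higher and 2 were at least 2-fold lower. The brightest H4 set had signals of 72439 and 102703 (0.50), while other H4 sets stood at -0.31 and -0.14. A set for 6 H2A genes went from 113 to 631 (2.48), and another for the same genes from 1265 to 1006 (-0.33). The sets shared by H2BC11 and H2BC8 went from 481 to 165 (-1.55) and from 267 to 126 (-1.08), opposite to the set of H2BC11 alone. Readings of the same copies thus disagreed in direction.

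Between the lines, 12 of 34 members lay below 0 in both pairs and 3 lay above 0 in both (H2AC15, H4C9 and H4C11). Another 12 were below 0 in Jeko-1/R and above 0 in Raji/R, 0 were the reverse, and 7 had both values under the floor in 1 pair. Joint directions were not counted over all genes, so these counts are not read as particular to histones. Across the 34 genes Pearson's r between the log2 ratios was 0.17 and Spearman's rho 0.14, a description across genes of the same arrays. H1-2, H2AC6 and H2AC17 were examples of lower values in both sublines.

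The resistance term of a limma fit over all 4 arrays, with cell line as a term, called 0 of 34 members and 0 of 12479 genes at a Benjamini-Hochberg adjusted p under 0.05. At an unadjusted p under 0.05 there were 3 members, all lower in resistant cells, and 301 genes, or 2.41% of those tested (0.906% lower and 1.51% higher). H2AC17 had a log2 difference of -0.70 ± 0.24 (SE), with an unadjusted limma p of 0.024. H2AC4, whose Raji/R signal of 72.4 was raised to the floor, had -0.73 ± 0.25, with an unadjusted limma p of 0.028. H2BC15 was also among the 3, but both its resistant signals, 61.1 (Jeko-1/R) and 51.6 (Raji/R), were raised to the floor. It entered the fit only through the parental arrays, so its floored difference of -0.74 is given without a p and supports nothing. The limma adjusted p was 0.98 for H2AC17 and H2AC4. Both genes were lower in 2 of 2 pairs, but a low p in this fit requires similar ratios in both pairs. That agreement therefore adds nothing. With 2 pairs the fit could show only large differences that repeat in both lines.

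Jeko-1 lines against Raji lines asked which histone readings differed between the lines. The line term of the same fit, with resistance as a term, called 13 of 34 members at an adjusted p under 0.05, where 67.8% of all genes were called. By direction, 9 members were higher in the Jeko-1 lines, against 29.5% of all genes, and 4 were higher in the Raji lines, against 38.4%. In this fit the members' share was below that of all genes, but this is not read as a result about histones. Of the 34 members, 18 had a mean signal under 200, as did 2961 of the 12479 genes. The part of signal level in these shares was not tested. The calls depended on the processing. With no filter 3 of 42 members were called, H2AC25, H4C5 and H4C11, all higher in the Raji lines, and all 9 calls for the Jeko-1 lines were lost (limma adjusted p from 0.089 to 0.29). Calls over all genes fell as well, to 739 higher in the Jeko-1 lines and 755 higher in the Raji lines, of 19775. With cyclic loess 19 of 34 were called, 16 higher in the Jeko-1 lines and 3 in the Raji lines, against 4142 and 4089 of all 12479 genes. Of the 13, 5 (H2BC4, H4C4, H4C13, H2AC25 and H4C5) had a mean under the floor in the line where they were low. They entered the fit only through the line where they were high, so their differences are given without a p and support nothing. The parent and its subline are not independent cultures, so these p-values measure only the spread between such pairs.

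Among histone copies higher in the Jeko-1 lines, H2BC21, a gene of the smaller cluster on chromosome 1, read 3836 and 3013 on the Jeko-1 arrays (parent, then subline), against 399 and 481 on those of Raji. The log2 difference was 2.96 ± 0.27 (SE), with a limma adjusted p of 0.00028. H2AC15 differed by 2.48 ± 0.28 (limma adjusted p = 0.00058), but its other probe set was under the floor on all arrays, and the mean of both gave 0.54 with an adjusted p of 0.20. H1-2 was higher by 1.93 ± 0.26 (limma adjusted p = 0.0011) and H1-3 by 1.56 ± 0.34 (limma adjusted p = 0.0079). H2BC4, H4C4 and H4C13 were under the floor on both Raji arrays, and their floored differences of 1.64, 1.29 and 0.75 are lower bounds. H2BC6 (0.88) and H2AC8 (0.86) passed with smaller differences, and H2AC8 missed with quantile normalization (0.48, limma adjusted p = 0.12).

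Higher in the Raji lines was H2AC25, also on chromosome 1, with signals of 651 and 671 in Raji and Raji/R and of 39.7 and 27.5 in Jeko-1 and Jeko-1/R. Both Jeko-1 values were raised to the floor, so the log2 difference of -3.09 is a bound on its size. H4C5 stood at 281 and 243 in the Raji lines and at 89.1 and 47.3 in the Jeko-1 lines, and H4C11 at 1953 and 2154 against 728 and 847. The floored difference of H4C5 was -1.65, with 1 Jeko-1 array raised to the floor, and that of H4C11 was -1.39 ± 0.24 (limma adjusted p = 0.0029). H1-4 passed with -0.80 ± 0.25 (limma adjusted p = 0.027), and missed with quantile normalization (-0.82, adjusted p = 0.051), cyclic loess (-0.39, 0.21), a pseudocount (-0.58, 0.069) and no filter (-0.80, 0.16).

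**Figure D4:**
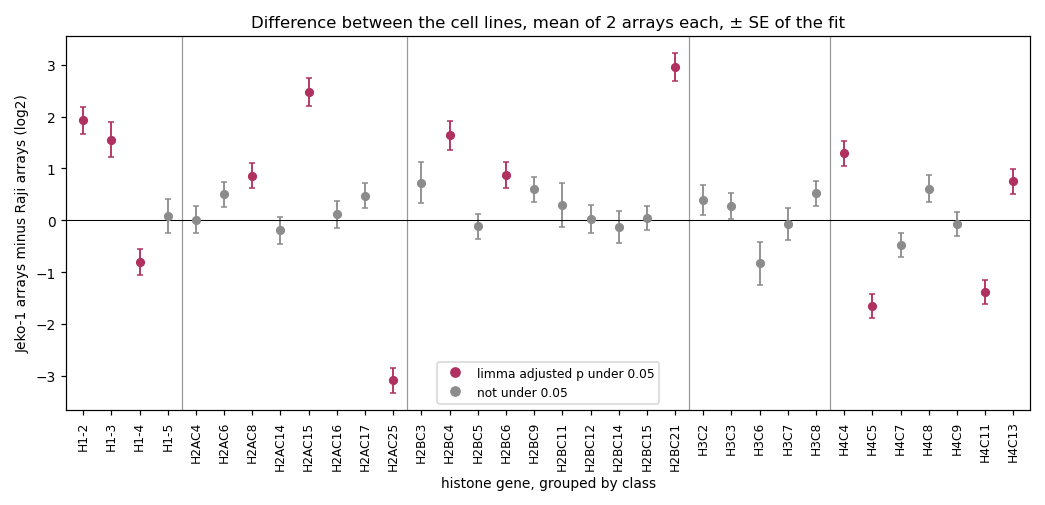
Difference in floored log2 signal between the Jeko-1 arrays (2) and the Raji arrays (2) for the 34 measured histone genes, grouped by class along the x axis, with bars of 1 SE from the limma fit. Red points have a limma adjusted p under 0.05, and grey points do not. H2BC21 at 2.96 and H2AC25 at -3.09 lie farthest from 0, the second of these with both Jeko-1 values raised to the floor.

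Both Jeko-1 arrays were at least 2-fold over both Raji arrays for 5 members (H1-2, H2AC15, H2BC4, H2BC21 and H4C4), where 21.1% of all genes did so. Both Raji arrays were at least 2-fold over both Jeko-1 arrays for 3 (H2AC25, H4C5 and H4C11), where 22.4% of all genes did so. H2BC5 differed by -0.12 ± 0.24 between lines, by 0.03 with quantile normalization and by 0.21 with cyclic loess. H2BC12 differed by 0.03 ± 0.27 as deposited, but was called higher in the Jeko-1 lines with quantile normalization (1.04, limma adjusted p = 0.018) and with cyclic loess (0.92, limma adjusted p = 0.011).

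Some H2A and H2B genes start back to back, within 500 bases and on opposite strands, and their values are set side by side. H2AC14 and H2BC14, with 245 bases between starts, had log2 ratios of -0.22 and -0.27 in Jeko-1/R and of 0.29 and 0.72 in Raji/R. H2AC6 and H2BC4 (246 bases) had -0.36 and -0.77 in Jeko-1/R, and H2AC6 had -0.70 in Raji/R, where H2BC4 was under the floor. H2AC15 and H2BC15 (194 bases) had floored values of 0.06 and -0.78 for Jeko-1/R, and of 0.79 and -0.70 for Raji/R. H2AC17 and H2BC17 (240 bases) had -0.67 and -0.16 in Jeko-1/R, but H2BC17 was not counted as measured. In Raji/R H2AC17 had -0.74, and H2BC17 was under the floor on both arrays of that pair. Neighbours thus had ratios of 1 sign in some cases. The opposite signs of H2AC15 and H2BC15 are not read as a difference, since both resistant signals of H2BC15 were raised to the floor. The Raji signal of H2AC15 was raised too, and its 0.06 in Jeko-1/R is under the SD between probe sets.

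The 14 measured members with an octamer had medians of -0.42 (Jeko-1 pair) and 0.01 (Raji pair), and the 20 others had -0.20 and 0.04. All 14 lay below 0 in Jeko-1/R, against 12 of the 20, and 6 of 14 and 6 of 20 lay below 0 in Raji/R. All 14 are H2A or H2B genes, so this contrast is largely one of class. Within H2B, the 8 measured genes with an octamer had medians of -0.41 (Jeko-1 pair) and 0.17 (Raji pair), and the 2 without had -0.47 and -0.50. In the Jeko-1 pair the 2 without were H2BC5 at -0.16 and H2BC15 at a floored -0.78. The 8 with an octamer ran from -1.49 (H2BC3) to -0.25 (H2BC12). Whether the octamer bears on the ratios was not tested.

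Genes that make, process and package histone mRNA and protein were taken from lists. Of 20 genes of histone transcription and pre-mRNA processing, 0 passed 2-fold in either line, with medians of 0.02 (Jeko-1 pair) and 0.13 (Raji pair). Shares of all genes past 2-fold were 0.345% higher and 0.553% lower in Jeko-1/R, and 6.27% and 2.83% in Raji/R. SLBP, which binds the stem-loop, stood at 6188 and 5366 in the Jeko-1 pair (-0.21) and at 6012 and 5165 in the Raji pair (-0.22). NPAT, the cyclin E-CDK2 substrate that activates histone genes, stood at 1604 and 1796 (0.16) and at 196 and 293 (0.58).

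Of 20 histone chaperone and import genes, 1 was at least 2-fold higher in Raji/R and 0 in Jeko-1/R, against 6.27% and 0.345% of all genes. The list medians were -0.06 in Raji/R and -0.09 in Jeko-1/R. The higher gene was TONSL, which recognises newly made histones behind the replication fork. Its signals were 150.2 in Raji and 352 in Raji/R. Among 7 measured replacement histones, which are made outside S phase too, 0 passed 2-fold, with medians of -0.10 for Jeko-1/R and 0.07 for Raji/R. H2AZ1 stood at 18776 and 18032 (-0.06) and at 45724 and 48159 (0.07). H3-3B had no probe set with its symbol alone. H2AX, which packages sites of DNA damage, stood at -0.13 and 0.29.

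S-phase genes lay slightly below 0 in both sublines by their medians. Of 31 measured, 26 (Jeko-1 pair) and 23 (Raji pair) lay below 0, with medians of -0.17 and -0.19. Over all measured genes 44.4% and 45.3% lay below 0. Over genes with a mean signal above 367, as for most of this list, 48.8% and 52.8% did. PCNA, the replication clamp, stood at 13978 and 11388 in the Jeko-1 pair (-0.30) and at 24946 and 16781 in the Raji pair (-0.57). CDC45, a part of the replicative helicase, was the 1 member at least 2-fold lower in Raji/R, from 1617 to 755, where 2.83% of all genes were. Of 16 genes of G2 and mitosis, 13 and 12 lay below 0, with medians of -0.12 in both. MKI67, a proliferation marker, stood at 3862 and 3778 in the Jeko-1 pair and at 369 and 744 in the Raji pair, and the spindle motor gene KIF11 at 415 and 132 in the Raji pair. The lists of S phase and mitosis and the histones were all below 0 in Jeko-1/R by their medians, and the part of cell cycle phase in the histone values was not tested.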

How the data were processed

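Per the labels' protocols, 6 µg of Trizol-extracted RNA gave the biotinylated cRNA. The authors deposited log2 signals of 54613 probe sets on 4 arrays. The submitters' processing notes name MAS5, without a version. Base 2 was read from the values. Scaling by 1 factor per array leaves signal-dependent differences in place. MAS5 detection calls were not analysed here.

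The array platform's annotation gave 1 symbol for 41091 probe sets, and gene IDs matched RefSeq (GRCh38.p14) for 41037 of them. Values under the floor, a log2 of 6.28, were raised to it, and ratios with 1 side raised are written "at least". Genes with a mean signal at or above the floor were analysed, with 2-fold as the size that counted. Between states and between lines, limma 3.58.1 (R 4.3.3) was fitted on 12479 genes with cell line and resistance as terms, empirical Bayes moderation and two-sided Benjamini-Hochberg adjustment. The pairing comes from the cell lines. Steps were tested on simulated data. Python 3.11.15, pandas 2.3.3 and statsmodels 0.14.6 were used.

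Alternatives were the mean of probe sets, no x_at or s_at sets, quantile or lowess scaling (fraction 0.3), a floor at the 75th percentile (a signal of 367), a pseudocount of 50, other filters and no line term. Members and lists were chosen with earlier results of these data known. Named genes followed a rule: members past 2-fold, those with the lowest p per term, the brightest of each class, discordant probe sets, and list genes past 2-fold. Others were named after their values were seen.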

Additional observations from a re-analysis of the deposited data

Results flagged for a closer look

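Of the measured histone genes, 3 had log2 ratios of opposite sign in the 2 lines, each larger than the SD between probe sets of a gene in its pair. The share of all genes that meet this rule was not counted, so the 3 are not read as particular to histones. H2BC11 stood at -0.87 (Jeko-1 pair) and 0.89 (Raji pair). H1-5 stood at -0.36 and at least 0.75, its Raji value having been raised to the floor. H2BC14 stood at -0.27 and 0.72, but its Raji value was under that SD with quantile normalization (0.53, against an unrounded SD slightly above it) and with lowess (0.42). With a pseudocount the Jeko-1 values of H1-5 and H2BC14, -0.25 and -0.21, were also under the SD of that pair. Each value rests on 1 array per group, and the difference between lines was not tested. The H2BC11 values in Raji/R have the opposite sign to both probe sets shared by H2BC11 and H2BC8, at -1.55 and -1.08.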

How the results depend on the processing

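The median histone log2 ratio moved by less than the SD between probe sets under all 8 alternatives, between -0.31 and -0.25 in Jeko-1/R and between -0.04 and 0.04 in Raji/R. The sign in Raji/R was not stable. Counts past 2-fold rest on 1 or 2 genes. Lower in Jeko-1/R were 0 with the higher floor, and higher was 1 (H2AC15) with the mean of probe sets. Lower in Raji/R was 1 with quantile normalization, 1 with lowess and 2 with a pseudocount. Higher in Raji/R were 0 with the mean of probe sets or the higher floor, and 2 with quantile normalization, a pseudocount, the filter on 1 array of the pair, or no filter. The resistance term called 0 members under every alternative, and 0 genes in all. In the fit with no replicate block (cell line left out), 0 members and 0 of 12479 genes had an unadjusted p under 0.05. That fit leaves the difference between the lines in its error, so its 0 is no support. Members called between lines numbered 7 of 11 with the higher floor, 3 of 42 with no filter (all higher in the Raji lines) and 19 of 34 with cyclic loess, against 13 of 34. Calls over all genes with the higher floor were 2982 (Jeko-1 lines higher) and 3534 (Raji lines higher) of 8138. They were 739 and 755 of 19775 with no filter, and 4142 and 4089 of 12479 with cyclic loess. The cause was not tested. Leaving out an array was not run as a test, since no residual degree of freedom would remain. Differences between lines of the 13 called members, taken over these alternatives, reversed in 0 cases, passed in 78 and missed in 15. These numbers include the 5 members whose mean was under the floor in their low line. The 13 were also chosen because the main fit called them, so the numbers are no support for the calls. Most members lie near the floor, where signals are not precise.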
